A study of Mus musculus with 120 samples.

Results

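The ventral anterior (VA) and ventromedial (VM) nuclei of the mouse motor thalamus were compared in 14 RNA-seq libraries, 8 of VA and 6 of VM, chosen by the nucleus named in each library's title, out of 120 libraries of 22 nuclei in the whole series. Every VA and VM library was made from a pool of 29 to 70 hand-picked neurons that had taken up DiI, a lipophilic dye that travels back along axons, from an injection into primary motor cortex. For all of them the labels also record axon labelling with a virus from 2 sites written SNr and DCN. The 6 libraries of the ventrolateral nucleus (VL), labelled by DiI from the same cortex, were used as a reference. The study profiled projection neurons of the thalamus by nucleus and target, and the contrast asks which genes separate 2 neighbouring nuclei whose sampled cells project to the same cortical area.

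Thalamic projection neurons are glutamatergic cells that carry signals from subcortical structures to the cortex. Among the motor nuclei, VA and VM are known mainly for input from the basal ganglia, and VL for input from the cerebellum. VM and parts of VA send axons to the upper layers of wide cortical areas, whereas VL sends a more focused projection to motor cortex. The calcium-binding proteins calbindin (Calb1) and parvalbumin (Pvalb) are a classical way of separating diffusely projecting from focally projecting thalamic neurons.

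All 14 libraries came from mice recorded as wildtype, except VA 6, whose genotype is written 33.7-Gad2. Each VA library came from its own animal, as did each VM library, and 2 animals gave 1 library of each nucleus. All 6 VL libraries came from animals that also gave a VA or VM library, and 2 of them pooled 2 animals. The VL libraries were recorded as wildtype, although VL 3 includes the animal of VA 6, and their ages ran from 87 to 163. By recorded sex 3 VL libraries were male, 2 female and 1 of both. The recorded age ran from 87 to 182 in VA and from 95 to 112 in VM, with 1 VM age not recorded and no unit given. The cDNA had been amplified on 3 dates. On 21 April 2015, 3 VA and 2 VL libraries were made and none of VM. On 6 August 2015 there were 3 VA, 4 VM and 4 VL libraries, and on 1 September 2015 there were 2 VA, 2 VM and none of VL. For the 3 VA libraries of April the date and any difference from VM cannot be told apart, so values are also given for the dates that hold both nuclei. The total count per library ran from 16876517 to 22113625 in VA and from 18196669 to 24285986 in VM, and 12035 to 14355 genes were detected. Over 9 measures of library size, composition and cell number the exact permutation test (two-sided, 3003 regroupings) gave adjusted p-values of at least 0.506. No vascular marker was measured, so the outcome for that sum, 0 in every library, was fixed. Total counts had the smallest unadjusted p of this test (0.0563), with means of 18613424 in VA and 20954961 in VM.

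Recorded sex did not match the RNA in 2 of these libraries. VA 8 and VM 4 were recorded as male, yet held Xist, the RNA that silences an X chromosome in females, at 1204 and 1183 CPM (counts scaled to a common library size), and Y-linked RNA at 0.10 and 0.645 CPM in sum. By these RNAs all 8 VA libraries were of the female type. Among the VM libraries 4 were of the female type, and VM 5 and VM 6 held 189 and 181 CPM of Y-linked RNA.

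Both nuclei carried the genes of thalamic glutamatergic neurons in every library. Slc17a6, the vesicular glutamate transporter of the thalamus, was at 740.2 (lowest), 1091 (median) and 1829 CPM (highest) in VA, and at 671, 902 and 1136 CPM in VM. Tcf7l2, a transcription factor that keeps thalamic neurons in their identity, was at 1069, 2108 and 3002 CPM in VA and at 1846, 2451 and 2945 CPM in VM. The 3 VA libraries of April 2015 were the low ones for Tcf7l2 (1069 to 1330 CPM), and the 2 VL libraries of that date were also the lowest of VL (813 to 866 against 1386 to 1807 CPM).

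RNA of other cell types was found in some libraries. The summed level of 11 measured oligodendrocyte markers was 16.8 (lowest), 107 (median) and 4344 CPM (highest) in VA and 11.5, 51.4 and 629 CPM in VM. VA 3 held the highest sum. Of 14 inhibitory neuron markers 3 were measured, with sums of 0.178 to 343 CPM in VA and 0.0496 to 6.68 CPM in VM. Among 13 astrocyte markers 4 were measured, with sums of 1958 to 3895 CPM in VA and 2434 to 4601 CPM in VM, most of it Slc1a2. The medians in VA and VM were 2913 and 2996 CPM for Slc1a2 and 45.4 and 35.0 CPM for Aldoc. For Slc6a11 they were 0.0649 and 0.349 CPM, and for S100b 0.0258 and 0 CPM. Slc1a2 was at 1608 CPM or more in every VA library and at 2396 CPM or more in every VM library. The astrocyte sum thus mainly gives the level of Slc1a2, and the cells this RNA came from were not tested. Of 11 microglia markers 3 were measured, with sums of 0.0643 to 50.02 CPM in VA and 3.52 to 50.4 CPM in VM, and C1qc was at 0 in all 14 libraries. No measured member of these marker lists was called between VA and VM, where 0.127% of all genes tested were called. Glul, which is outside the lists and is known as an astrocyte enzyme, was called and is described with the single-library genes. The part of these cells in the results was not tested, and in pooled RNA fewer cells of a type and less RNA per cell cannot be told apart.

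**Figure D1:**
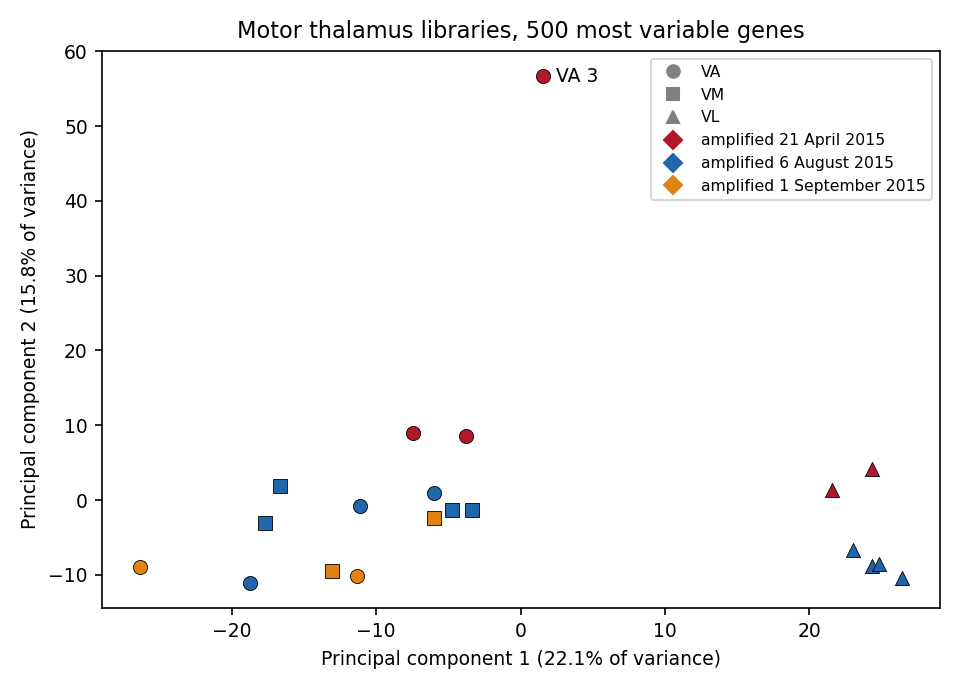
Principal components 1 and 2 of the 20 motor thalamus libraries, from the 500 most variable genes on the log2(CPM + 1) scale. Marker shape gives the nucleus and colour the amplification date. VL libraries lay at 21.5 to 26.4 on the first component, while VA (-26.3 to 1.57) and VM (-17.7 to -3.36) shared one range, and VA 3 stood alone at 56.7 on the second.

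Few genes separated VA from VM. Of 16527 genes tested with edgeR's quasi-likelihood test over all libraries of the series, 21 passed an adjusted p of 0.05 (0.127% of the genes tested), 8 of them higher in VA (0.0484%) and 13 higher in VM (0.0787%). In the same fit VA differed from VL in 365 genes (2.21%), with 1.37% of the genes tested higher in VA and 0.841% higher in VL. VM differed from VL in 280 genes (1.69%), with 1.22% higher in VM and 0.478% higher in VL. The 3 comparisons share libraries. Among 3967 genes that averaged 50 CPM or more the VA to VM estimate exceeded 2-fold for 65 (1.64%), against 191 (4.81%) for VA to VL and 211 (5.32%) for VM to VL. The 95% interval of the VA to VM difference lay within 2-fold for 2735 of those 3967 genes (68.9%). For these the fit bounds the difference, with a spread estimated over all groups of the series and amplification date left out. The interval lay wholly beyond 2-fold for 5 genes, of which 4 were called (Tmem184b, Glul, Adcy8 and Stau1). The other was Ndufaf5, an assembly factor of respiratory complex I, at 99.9 ± 117 CPM in VA and 23.3 ± 9.64 CPM in VM (edgeR adjusted p = 0.0668). For the remaining genes the interval included both smaller and larger differences than 2-fold.

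The count of calls depended on the fit. With the VA, VM and VL libraries alone edgeR called 0 of 12989 genes (826 at an unadjusted p under 0.05). Of the 21 called genes 10 passed the filter on low counts in that fit, all with the same direction, while Glra3 and the Y-linked genes were among the 11 not tested in it. The same fit gave 277 calls for VA against VL (2.13%) and 223 for VM against VL (1.72%). With amplification date as a term it again called 0 genes (695 unadjusted). DESeq2 on all libraries called 320 genes.

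The similarity of whole libraries followed nucleus only in part. Over 8688 genes the median Spearman correlation was 0.770 between pairs of VA libraries, 0.840 between pairs of VM libraries and 0.802 between a VA and a VM library. It was 0.800 between a VA and a VL library and 0.821 between a VM and a VL library. Over pairs amplified on the same date the medians were 0.818 for VA and VM (16 pairs), 0.842 for VA and VL (18 pairs) and 0.834 for VM and VL (16 pairs). These are descriptions of pairs that share libraries. VA 3 was the least like its own nucleus, with a median of 0.679, and the other VA libraries lay between 0.758 and 0.820.

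**Figure D2:**
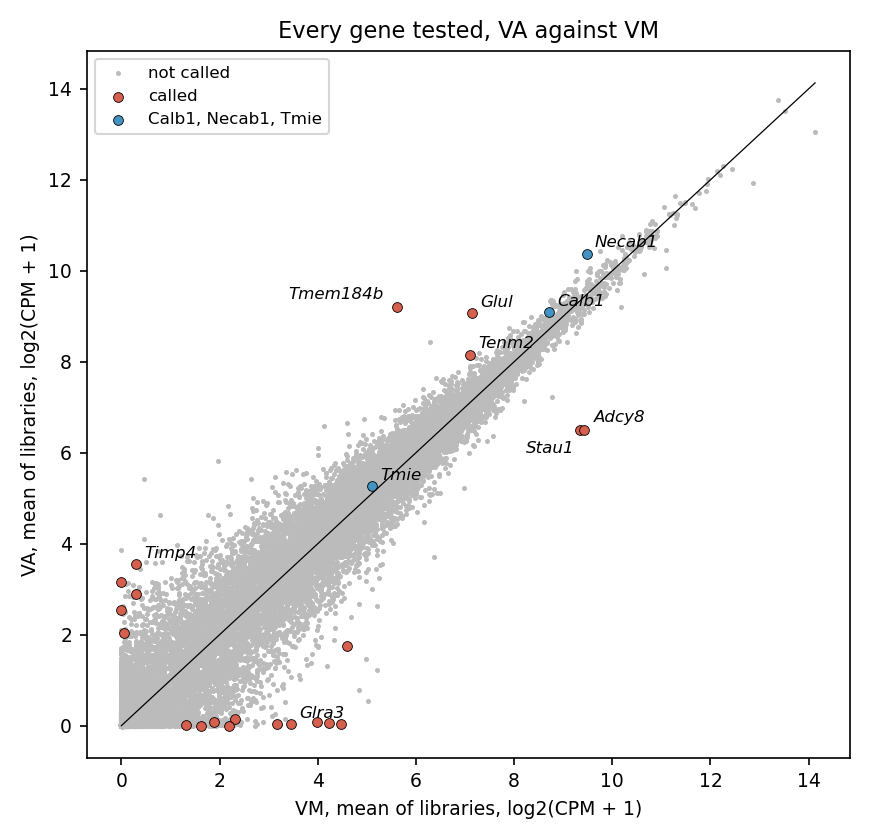
Mean level of every gene tested in VA (vertical) and VM (horizontal), as log2 of the mean CPM plus 1, with the line of equal levels. Red points are the 21 called genes, and blue points are Calb1, Necab1 and Tmie, which lie near the line.

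Necab1, Calb1 and Tmie, 3 genes listed as markers of these nuclei, were examined next. Necab1 encodes a neuronal calcium-binding protein and lies at chr4:14952245-15149794 on the minus strand (mm10). Its level was 933 (lowest), 1227 (median) and 1749 CPM (highest) in VA, 350 (lowest), 684 (median) and 1092 CPM (highest) in VM, and 6.01, 108 and 158 CPM in VL. Of the 8 VA libraries 7 lay above the highest VM library, VM 3, and VA 8 was the exception. The fitted difference was 0.90 on the log2 scale (95% interval -0.29 to 2.09) with an edgeR adjusted p of 0.687 over all genes. The exact permutation test on log2(CPM + 1), run for these 3 genes, gave a mean difference of 0.96 and an unadjusted p = 0.000666 (two-sided) for Necab1. The unadjusted edgeR p of the same gene was 0.135. That fit, which also gave the interval, estimates the spread over all 24 groups of the series. With the VA, VM and VL libraries alone the unadjusted edgeR p was 0.0208 (adjusted p = 0.728). Within 1 September the 2 VA libraries (1503 and 1745 CPM) lay above the 2 VM libraries (578 and 881 CPM). Within 6 August VA ran from 933 to 1749 CPM and VM from 350 to 1092 CPM. With date as a term the difference was 0.83 (0.05 to 1.61, edgeR adjusted p = 0.911).

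Calb1, the calcium buffer calbindin, lies at chr4:15881264-15908064 on the plus strand, 731469 bases from Necab1. It was at 314 (lowest), 482 (median) and 933 CPM (highest) in VA, at 329, 367 and 624 CPM in VM, and at 68.6, 102 and 250.2 CPM in VL. Ranges of VA and VM overlapped, and the fitted log2 difference was 0.38 (95% interval -0.42 to 1.17, edgeR adjusted p = 0.865; exact permutation p = 0.213). The 3 VA libraries of April 2015 were the highest of VA (576 to 933 CPM), and VL was also highest on that date (159 and 250.2 CPM against 68.6 to 118 CPM in August). On the dates with both nuclei VA had 414 ± 84.1 CPM (SD, n = 5) and VM 417 ± 117 CPM (SD, n = 6). With date as a term the log2 difference was -0.05 (-0.45 to 0.34).

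Tmie encodes a membrane protein of the hair-cell mechanotransduction channel and lies at chr9:110865711-110880113 on the minus strand, overlapped on the other strand by Als2cl. It was at 5.72 (lowest), 32.5 (median) and 81.8 CPM (highest) in VA and at 16.2, 29.04 and 52.7 CPM in VM. All VM values fell inside the VA range, while VL held at most 1.19 CPM. The low end of the VA range came from VA 3 (5.72 CPM) and VA 2 (7.80 CPM), both of the April date, which held no VM library. On the dates with both nuclei VA had 49.0 ± 26.0 CPM (SD, n = 5) and VM 33.5 ± 14.4 CPM (SD, n = 6). The log2 difference was 0.16 (95% interval -1.38 to 1.69, edgeR adjusted p = 1; exact permutation p = 0.762). This interval is wide enough to hold a 2-fold difference in either direction. With date as a term the log2 difference was 0.63 (-0.56 to 1.82, edgeR adjusted p = 0.985).

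Over the 24 groups of the series VA had the highest mean of Calb1 (542 ± 211 CPM, SD, n = 8) and VM the next (417 ± 117 CPM, n = 6). The third was the group labelled PVT (395 ± 8.17 CPM, n = 3), and these neighbours lay within their spread of each other. The place of VA above VM rested on the April libraries of VA (756 ± 178 CPM, n = 3), a date without VM. On the dates with both nuclei the mean of VA was 414 ± 84.1 CPM (n = 5), not above that of VM. For Necab1 VA ranked 11 and VM 14 of 24, and for Tmie they ranked 6 and 7, with VL at the bottom (0.282 ± 0.447 CPM, n = 6). Both nuclei were called against VL for all 3 genes. The 3 genes were chosen with earlier results of these data known. These calls and the permutation p-values of the 3 genes are therefore not independent of the data.

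**Figure D3:**
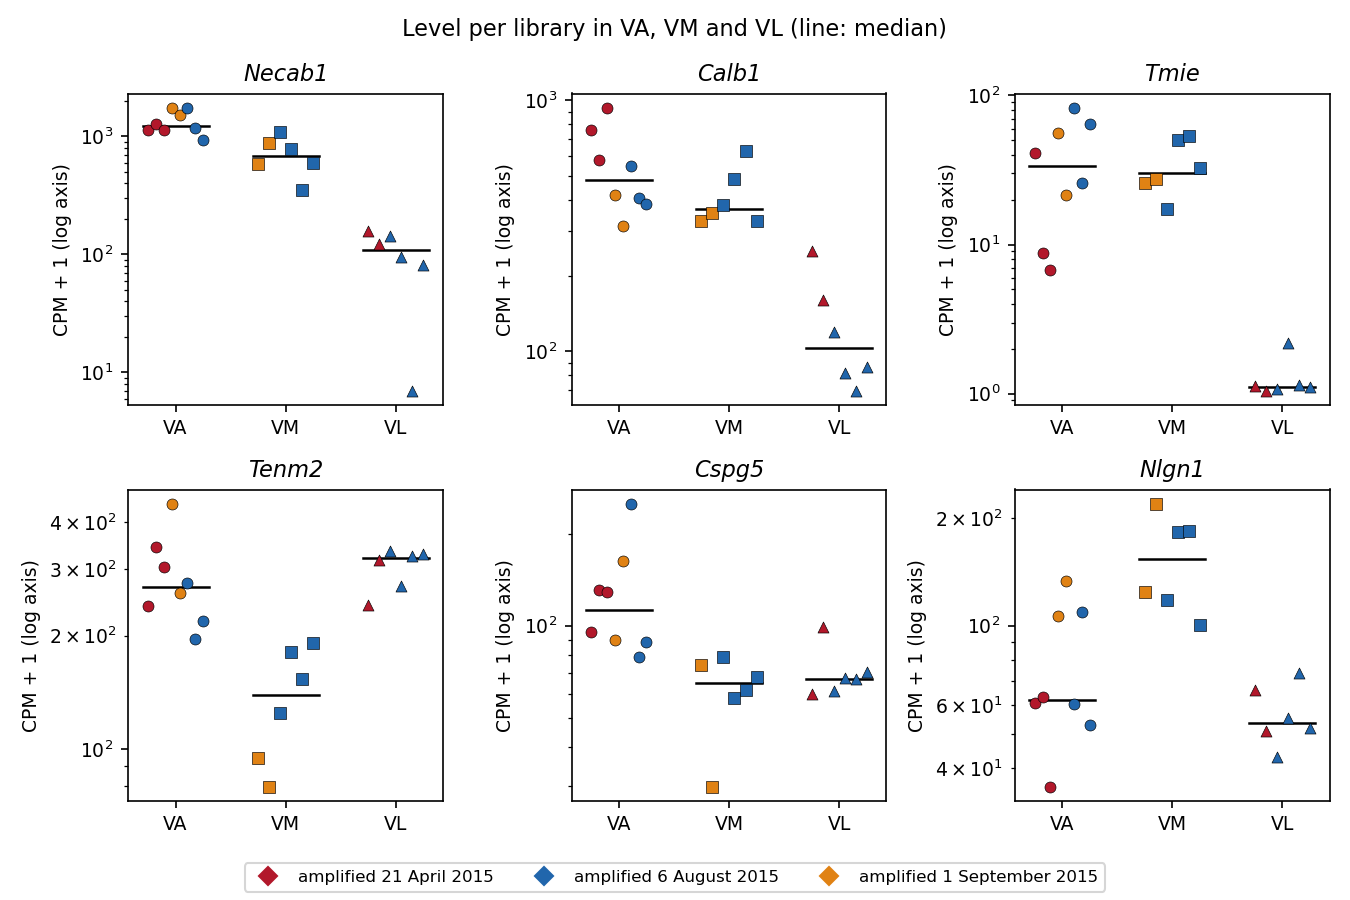
CPM + 1 on a log axis for 6 genes, 1 point per library of VA (8), VM (6) and VL (6), coloured by amplification date, with the median as a line. Necab1 overlaps in 1 VA library only, Calb1 is high in VA on the April date, and Tenm2 and Cspg5 show no overlap of VA and VM.

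Tenm2 was the only called gene whose VA and VM ranges did not overlap. It encodes teneurin-2, a large synaptic adhesion protein that binds latrophilins across the cleft, and lies at chr11:36006656-37235964 on the minus strand. Its level was 195 (lowest), 267 (median) and 447 CPM (highest) in VA and 78.6, 138 and 190.3 CPM in VM. Every VA library exceeded every VM library. VL, at 240.2 to 335 CPM, lay with VA. The log2 difference was 1.06 (SE 0.22, 95% interval 0.62 to 1.501, edgeR adjusted p = 0.00778), and VM was also below VL (-1.15, adjusted p = 0.000763). With date as a term the size stayed at 1.11 (0.63 to 1.59), with an adjusted p of 0.311. Without VM 1 or without VM 2, the 2 lowest libraries, the adjusted p rose to at most 0.0795.

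Partners and relatives of Tenm2 are given by their levels, and none was called (0.127% over all genes). Tenm1 was at 735 ± 267 CPM in VA and 912 ± 219 CPM in VM, and Tenm3 at 265 ± 98.8 and 375 ± 83.4 CPM. Tenm4 stood at 194 ± 61.1 and 196 ± 22.6 CPM. For the latrophilin Adgrl1 the levels were 489 ± 121 and 654 ± 177 CPM, for Adgrl2 181 ± 59.04 and 218 ± 45.04 CPM, and for Adgrl3 278 ± 54.4 and 313 ± 61.4 CPM (SD, n = 8 and n = 6).

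Among 9229 genes whose average reached 10 CPM in 1 or both nuclei, the ranges of VA and VM did not overlap for 3 genes (0.0325%), all higher in VA, and for 0 genes higher in VM. Besides Tenm2 these were Cspg5 and Dnah7b. Over all genes tested the count was 4 (0.0242%), and the gene added was the gene model Gm13577, at 0.5684 ± 0.307 CPM in VA and 0.109 ± 0.091 CPM in VM. Cspg5 encodes a brain chondroitin sulphate proteoglycan and lies at chr9:110243783-110262576. It was at 78.0 (lowest), 111 (median) and 249.7 CPM (highest) in VA and at 28.8, 63.7 and 77.8 CPM in VM, so that the nearest libraries differed by under 1 CPM. The log2 difference of Cspg5 was 1.07 (0.43 to 1.70, edgeR adjusted p = 0.165). Dnah7b, an axonemal dynein heavy chain, was at 42.3, 51.9 and 99.6 CPM in VA and 28.1, 33.7 and 40.5 CPM in VM (log2 difference 0.87, adjusted p = 0.438).

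Timp4, an inhibitor of matrix metalloproteinases, was found in VA and VL and nearly absent from VM. It was at 0 (lowest), 7.61 (median) and 37.02 CPM (highest) in VA, at 0 to 0.645 CPM in VM and at 1.18 to 9.78 CPM in VL. Of the VA libraries 7 lay above every VM library, and VA 3 had no count. In counts VA held 1636 and VM 29, a depth-scaled ratio of 48.2, or 30.7 without VA 8. The 95% counting interval of 33.4 to 72.1 covers counting error only, not the spread between libraries. The fitted log2 difference was 5.53 (95% interval 3.10 to 7.95, edgeR adjusted p = 0.0172). Compared with VL, VM was again lower (adjusted p = 0.0398). The call was lost without VA 8, VM 1, VM 2, VM 5 or VM 6, with adjusted p-values of at most 0.0940.

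The gene lies at chr6:115241892-115252205 on the minus strand inside Syn2 (chr6:115134902-115282006, plus strand), which encodes the synaptic vesicle protein synapsin II. Since counting is not stated to use strand, reads of these 2 genes cannot be told apart where they overlap, and 1 of 7 annotated Timp4 exon records overlaps a Syn2 exon. Syn2 was at 63.4 (lowest), 130.2 (median) and 498 CPM (highest) in VA and at 43.9, 85.1 and 115 CPM in VM (log2 difference 1.23, edgeR adjusted p = 0.0668). VA 3, with the highest Syn2, had no Timp4 count. Because Timp4 was the called gene with this overlap, the 250 bases before its start are shown, from RefSeq on GRCm38.p6 at chr6:115252206-115252455, minus strand, inside a Syn2 intron.
Timp4: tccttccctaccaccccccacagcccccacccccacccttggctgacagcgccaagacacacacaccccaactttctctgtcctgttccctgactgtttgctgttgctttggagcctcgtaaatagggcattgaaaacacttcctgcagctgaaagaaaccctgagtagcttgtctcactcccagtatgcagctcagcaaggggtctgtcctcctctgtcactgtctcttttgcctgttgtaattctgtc
No base is in capitals because neither motif searched occurs on either strand of this window. Of 32851 windows of the same length in the table, 12.4% hold TATAAA, the core promoter box bound by the TATA-binding protein. The other motif was the core bound by the transcription factors of the Tcf7l2 family, TCAAAG, which 13.8% of the windows hold.

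Erich5, a gene with a glutamate-rich product, was also lower in VM than in VA or VL. It was at 0.415 (lowest), 4.56 (median) and 19.1 CPM (highest) in VA, at 0 to 0.761 CPM in VM and at 1.01 to 23.8 CPM in VL. The count ratio of VA to VM was 26.1 (95% counting interval 18.1 to 39.3), and 7 of 8 VA libraries lay above VM. The fitted log2 difference was 4.77 (95% interval 2.70 to 6.84, edgeR adjusted p = 0.0162). Without VM 1, VM 2, VM 4 or VM 5 the call was lost, with an adjusted p of at most 0.0851.

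The other 3 low-level genes called higher in VA rested on 1 to 3 libraries. Klhl14, a Kelch-family adaptor, reached 47.3 CPM in VA 4 and 16.1 CPM in VA 2, and was under 0.1 CPM in the other VA libraries. It had 0 counts in VM, so that VA was at least 293-fold higher against a floor of 3 counts over the VM libraries (edgeR adjusted p = 0.0214). Without VA 4, which held 726 of the 1030 counts, the bound was at least 96.9-fold. Without VA 4 or any single VM library the adjusted p of Klhl14 rose to at most 0.102. Pcsk5, a proprotein convertase, was at 20.5 CPM in VA 4 and at most 3.53 CPM elsewhere in VA, and at most 0.0971 CPM in VM (adjusted p = 0.00714). The bombesin-family receptor Nmbr was at 33.5 CPM in VA 3, 3.85 CPM in VA 4 and at most 1.05 CPM in the other VA libraries. With 0 counts in VM the bound for Nmbr was at least 171-fold (adjusted p = 0.0244), and at least 25.9-fold without VA 3. Pcsk5 was no longer called without VA 4 (adjusted p = 0.190), nor Nmbr without VA 3 (0.243) or any single VM library.

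Of the called genes of higher abundance, 4 had 1 library far above all others. Tmem184b, a transmembrane protein, stood at 4119.7 CPM in VA 6 and at 13.9 to 290.5 CPM in the other VA libraries, against 25.3 to 62.2 CPM in VM. Glul, glutamine synthetase, reached 3308 CPM in VA 8 and otherwise 95.2 to 251 CPM in VA, against 79.3 to 205 CPM in VM. Without those libraries the adjusted p was 0.715 for Tmem184b and 1 for Glul, whose direction reversed. Stau1, an RNA-binding protein of dendritic transport, was at 3500.8 CPM in VM 5 and 37.3 to 120.2 CPM in the other VM libraries, against 21.8 to 162 CPM in VA. Adcy8, a calcium-stimulated adenylyl cyclase, was at 3741 CPM in VM 2 and 47.8 to 104 CPM in the other VM libraries, against 35.4 to 171 CPM in VA. Leaving out VM 5 gave an adjusted p of 0.998 for Stau1, and leaving out VM 2 gave 0.943 for Adcy8, both with the opposite direction.

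Glra3 was the call with the smallest adjusted p (1.27e-06, edgeR), and remained called in each of the 14 fits that left out 1 library. It encodes the alpha 3 subunit of the glycine receptor, a chloride channel, and lies at chr8:55940460-56130070. It was at 28.6 CPM in VM 4 and 29.5 CPM in VM 5, at 1.06, 0.888 and 0.145 CPM in VM 6, VM 3 and VM 1, and at 0 in VM 2. All 8 VA libraries held at most 0.0655 CPM, 3 counts in all. VM held 1158 counts, a ratio of 452 (95% counting interval 154 to 2196), or 285 without VM 5. The fitted log2 difference was -8.45 (95% interval -10.8 to -6.13). VL held at most 0.407 CPM. The high VM libraries were both of 6 August, where VA held at most 0.0655 CPM, and on 1 September VM stood at 0 and 0.145 CPM. The highest mean of Glra3 in the series was 62.6 ± 38.8 CPM (SD, n = 8), in the group labelled RE.

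Alcam, an immunoglobulin-family adhesion molecule, was high in the same VM libraries. It was at 59.4, 48.2 and 24.8 CPM in VM 4, VM 5 and VM 6 and at 0 to 4.12 CPM in the other VM libraries, against 0 (lowest), 1.497 (median) and 9.99 CPM (highest) in VA. The log2 difference was -3.27 (-4.73 to -1.81, edgeR adjusted p = 0.0214), and the call was lost without any 1 of 6 libraries (VA 2, VA 3, VA 6, VA 8, VM 4 or VM 5). The difference was -2.72 without VM 4 and -4.17 without VA 1. On 1 September Alcam overlapped fully between the nuclei, with 0 and 2.35 CPM in VA and 0 and 4.12 CPM in VM.

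The remaining 5 autosomal genes called higher in VM were at or near 0 in VA. Cbln4, a secreted synaptic organiser, was at 10.6 CPM in VM 4, 3.93 CPM in VM 2 and under 1 CPM elsewhere (count ratio 55.6, interval 26.7 to 139; 23.6 without VM 4). Prph, the intermediate filament peripherin, was at 11.4 CPM in VM 4 and at most 0.582 CPM in the other VM libraries. Its count was 0 in VA, so VM was at least 96.8-fold higher against 3 counts over the VA libraries. Without VM 4, which held 230 of the 248 counts, the bound was at least 8.42-fold. The phospholipid acyltransferase Mboat1 was at 15.8 CPM in VM 2 and 4.07 CPM in VM 6, with 0 counts in VA (at least 168-fold, and at least 48.4-fold without VM 2). Gpc5, a cell-surface heparan sulphate proteoglycan, was at 6.59 CPM in VM 5 and 2.33 CPM in VM 4, with 1 count in VA. The gene model Gm44905 was at 19.4 CPM in VM 4 and 4.06 CPM in VM 5. Without VM 4, Cbln4 (adjusted p = 0.102), Prph (0.247), Gm44905 (0.256) and Gpc5 lost their calls. Gpc5 remained called in 5 of the 14 fits and Mboat1 in 7, where the losses included the fit without VM 2. All 5 genes lost their call in at least 1 of the 14 fits.

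The other 4 calls were the Y-linked genes Eif2s3y, Kdm5d, Ddx3y and Uty, with edgeR adjusted p-values of 0.000921, 0.00171, 0.00171 and 0.00354. Eif2s3y was at 59.7 and 68.2 CPM in VM 5 and VM 6 and at most 0.198 CPM in the other 12 libraries of VA and VM. The 2 VM libraries that held them were the male-type ones, and no VA library was of that type. Leaving out the 5 tested sex-linked RNAs, 17 of 16522 genes were called (0.103%). In the 12 female-type libraries alone edgeR called 0 genes (529 at an unadjusted p under 0.05). Only 8 of the 21 genes were tested in that fit, and Glra3 was not among them. Timp4 and Erich5 were tested and not called (adjusted p = 0.993 for both), with log2 differences of 4.97 and 5.02.

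**Figure D4:**
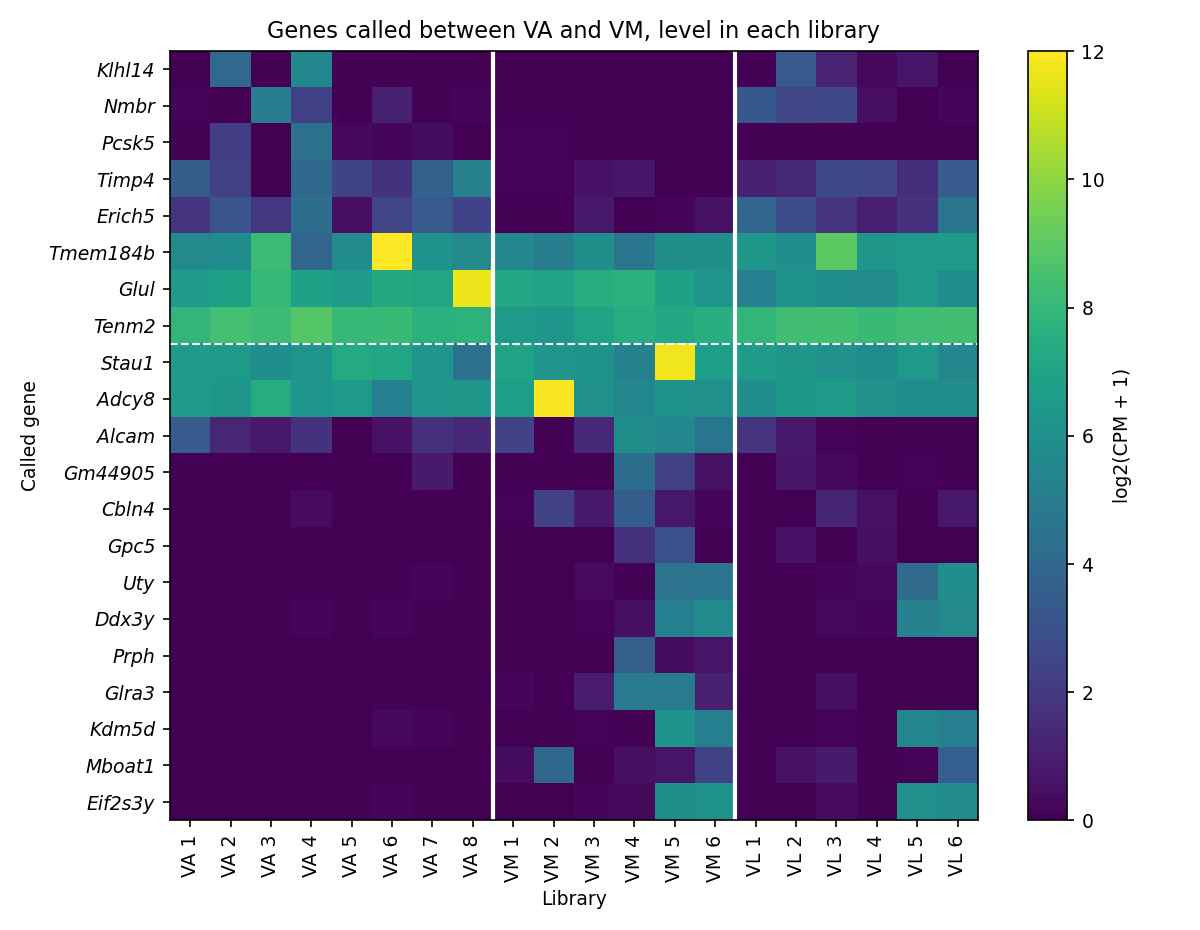
Level of the 21 called genes as log2(CPM + 1) in each of the 8 VA, 6 VM and 6 VL libraries, ordered by fold change, with genes higher in VA above the dashed line. Most rows are set by 1 to 3 bright cells, and only Tenm2 shows an even step between VA and VM.

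Genes that place thalamic neurons between relay types were compared as a list of 19, all tested. None was called between VA and VM, where 0.127% of all genes were called. Between VA and VL 10 were called (2.21% of all genes) and between VM and VL 11 (1.69%). The list was written with earlier results of these data known, so these counts against VL are not independent of the data. Pvalb, the calcium buffer of focally projecting relay cells, was at 0.0593 (lowest), 3.66 (median) and 12.5 CPM (highest) in VA and 0.198, 2.85 and 8.72 CPM in VM, and at 37.1 to 126 CPM in VL. Tnnt1, a troponin used as a marker of primary relay nuclei, was at 4.00, 22.3 and 63.2 CPM in VA and 0.243, 17.0 and 29.5 CPM in VM. The 3 April libraries of VA held 50.6 to 63.2 CPM of Tnnt1 and the other 5 had 13.0 ± 9.31 CPM (SD). Slc17a7, a second vesicular glutamate transporter, was at 26.9, 70.7 and 117 CPM in VA and 53.9, 147 and 211 CPM in VM. Of 6 VM libraries 4 lay above every VA library. Its log2 difference was -1.001 (-2.36 to 0.36, edgeR adjusted p = 0.705). With date as a term it was -0.72 (-1.35 to -0.08, edgeR adjusted p = 0.900). Scn4b, a sodium channel subunit, was at 14.6 ± 8.90 CPM in VA, 25.3 ± 6.60 CPM in VM and 214 ± 56.2 CPM in VL.

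No transcription factor or calcium-binding protein of the lists was called. Over all genes 0.127% were called, so that a count of 0 says little about lists of this size. Of 38 thalamic identity factors 30 were tested, and the median log2 difference of the 27 at 10 CPM or more was 0.11, against 0.07 over all genes at that level. Gbx2, a factor of thalamic development, was at 5.11, 32.9 and 74.7 CPM in VA and 2.97, 29.2 and 47.9 CPM in VM, and Foxp2, a forkhead factor, at 87.4, 132 and 207 CPM and 78.4, 135 and 163 CPM. Rora, the orphan receptor of sensory and motor relay nuclei, was at 2449.7 ± 481 and 2279.7 ± 673 CPM. Of 22 calcium-binding protein genes 19 were tested, with a median of 0.04 over 14 genes. Calb2, calretinin, was near 0 in both, at up to 1.54 CPM in VA and 8.88 CPM in VM. Hpca, hippocalcin, was the lowest of that list, at 0.0652 (lowest), 1.85 (median) and 23.1 CPM (highest) in VA and 4.44, 16.6 and 129.9 CPM in VM (log2 difference -2.80, edgeR adjusted p = 0.212).

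No ion channel list held a call, beside 0.127% over all genes. This covered 33 tested voltage-gated potassium channel genes (median 0.04 over 27 at 10 CPM), 22 other potassium channels, 11 sodium channels, 20 calcium channels and 5 HCN channels. Cacna1g, the T-type calcium channel that drives thalamic burst firing, was at 326 ± 96.8 CPM in VA and 348 ± 37.5 CPM in VM. Its log2 difference was -0.10, and the 95% interval of the fit over all libraries (-0.59 to 0.40) lay within 2-fold. Cacna1e, an R-type channel, was at 0.193 (lowest), 35.9 (median) and 70.0 CPM (highest) in VA, 30.3, 76.7 and 348 CPM in VM, and 1.2 ± 1.2 CPM in VL (VA to VM adjusted p = 0.170). Hcn4, a pacemaker channel, was at 124 ± 73.5 CPM in VA and 208 ± 31.2 CPM in VM (log2 difference -0.74, -1.52 to 0.04). Hcn2 had the highest log2 difference of the HCN channels at 10 CPM or more, 0.40 on the VA side. Kcnc2, a fast potassium channel, was at 1039 ± 317 and 1188 ± 428 CPM.

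Receptors gave 1 call, beside 0.127% over all genes. Of 21 tested GABA and glycine receptor genes Glra3 alone was called, and of 24 glutamate receptor genes none. Glra2, another glycine receptor subunit, was at 71.3 ± 38.8 CPM in VA and 53.5 ± 14.1 CPM in VM. Among the kainate receptor subunits, of which none was called, Grik1 was at 5.86 ± 5.99 and 18.7 ± 12.6 CPM, Grik2 at 170 ± 54.6 and 174 ± 25.2 CPM, and Grik3 at 38.2 ± 39.7 and 16.7 ± 14.99 CPM in VA and VM. Of 23 amine and acetylcholine receptor genes and 18 peptide, opioid and cannabinoid receptor genes tested, none was called.

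Among 54 tested synaptic adhesion genes other than cadherins Tenm2 was called (0.127% over all genes), and 10 had an unadjusted p under 0.05 (10.1% over all genes). The 52 at 10 CPM or more had a median log2 difference of -0.15, and 16 of them (30.8%) were on the VA side, against 57.0% of all genes at that level. Of 26 cadherins and protocadherins none was called (median 0.00 over 21). In the axon guidance list none of 48 tested was called, although 10 of 37 (27.0%) at 10 CPM exceeded 2-fold, against 9.78% of all genes. Sema5b, a semaphorin, and Slit1, a repellent, were its extremes, with medians of 1.43 and 0.522 CPM and of 3.23 and 14.8 CPM in VA and VM.

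The genes of oxidative phosphorylation, which encode the subunits of the respiratory chain, stood out by their median and moved with the amplification date. None of 75 tested was called, and 16 had an unadjusted p under 0.05, against 10.1% of all genes tested. The 74 at 10 CPM or more had a median log2 difference of 0.54, and 70 of them (94.6%) were on the VA side. Their summed level was 12594 to 26277 CPM in the 3 April libraries of VA and 7208 to 9715 CPM in the other 5, against 7658 to 10142 CPM in VM. VL showed 14402 and 15932 CPM in April and 10918 to 12938 CPM in August. With date as a term the median was 0.08, with date as a term on the shared dates -0.05, and without VA 3 it was 0.24.

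The oligodendrocyte marker list moved with VA 3. Its 8 members at 10 CPM or more had a median log2 difference of 1.73, which was 0.03 without VA 3. The list of neuropeptides and secreted organisers, with 20 members tested, held 1 call (Cbln4, higher in VM; 0.127% over all genes) and 6 at an unadjusted p under 0.05 (10.1% over all genes). Its 8 members at 10 CPM or more had a median of 0.58, with 6 on the VA side. That median was 0.33 with date as a term, 0.20 with date as a term on the shared dates and 0.33 without VA 3. C1ql3, a secreted synaptic organiser, was the highest of them, at 1.07 (lowest), 3.50 (median) and 52.01 CPM (highest) in VA and 0, 0.835 and 9.97 CPM in VM (log2 difference 2.64, edgeR adjusted p = 0.170).

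**Figure D5:**
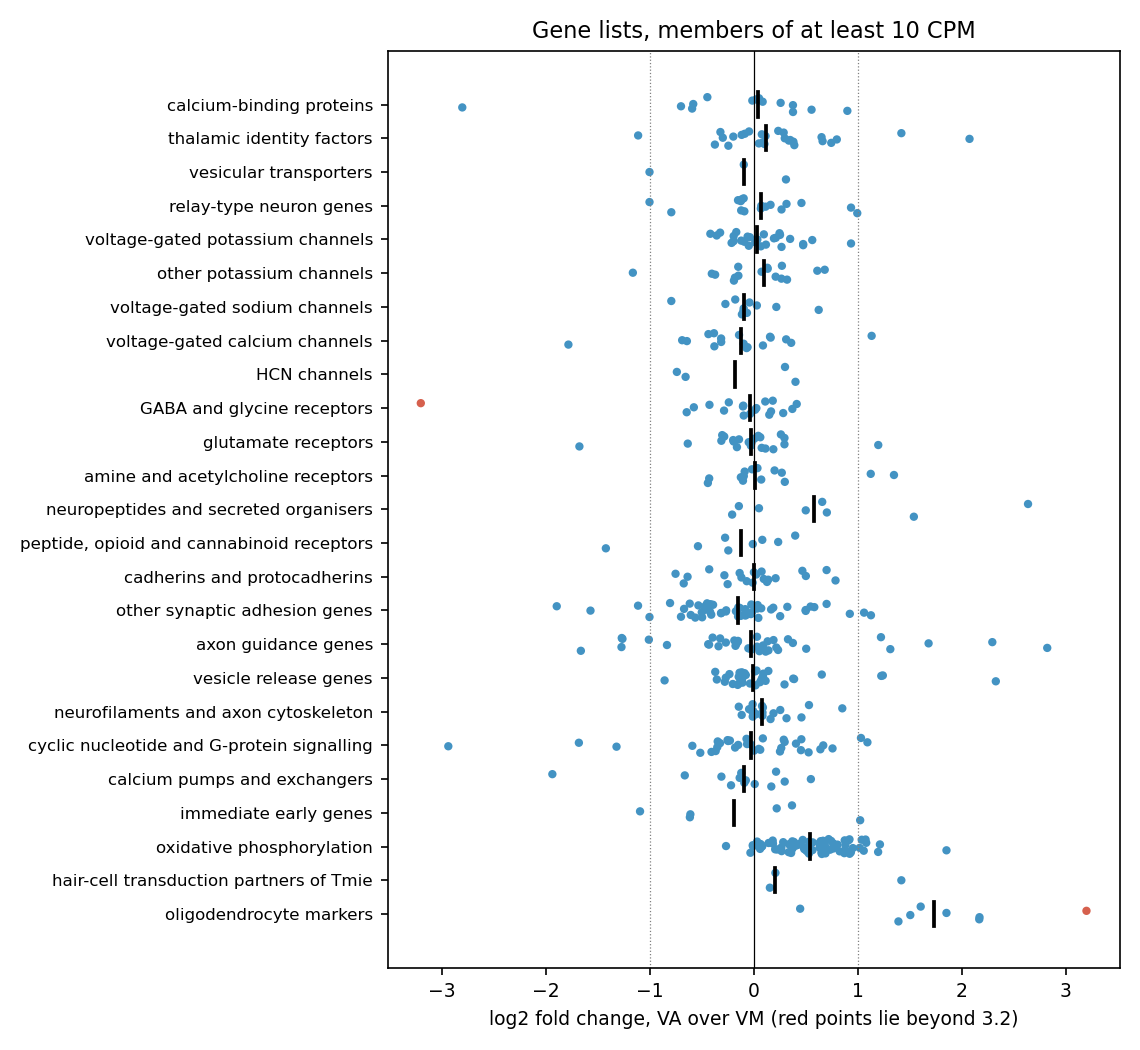
Fitted log2 fold change of VA over VM for each list member averaging 10 CPM or more in 1 or both nuclei (points), with the median of the list as a bar and dotted lines at 2-fold. Most medians of the larger lists lie near 0, while the oxidative phosphorylation (0.54), neuropeptide (0.58, 8 members) and oligodendrocyte (1.73, 8 members) lists lie on the VA side.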

How the data were processed

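The authors deposited whole-number read counts per gene, without normalization, for 120 libraries, and a table of tracer, sex, amplification date, animal and cell number per library. Per the labels' protocols, cDNA was amplified with the Ovation kit, version 2. Build mm10 is named by the submitters' processing notes, beside featureCounts 1.52, STAR 2.5.3a and cutadapt 1.16; settings and any use of strand are not given in the sources used here. Of the 21 called genes 11 have an annotated gene on the opposite strand, so their reads are uncertain. Gad1, Gad2, Aqp4 and Gfap are not analysed here.

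Counts were fitted with edgeR 4.0.16 (R 4.3.3; TMM, filterByExpr with a minimum count of 10, quasi-likelihood test, 1 coefficient per group, no covariate) over all 120 libraries, with Benjamini-Hochberg adjustment over 16527 genes and a threshold of 0.05. CPM use TMM-scaled library sizes. Counting intervals are exact, at 95%, and cover counting error only. The test was tried on counts simulated for the VA, VM and VL libraries alone. That simulation did not cover the fit over all 120 libraries, and no single-library extremes were put in. Named genes were the called genes of at least 10 CPM (the 15 largest changes each way), called list members of at least 5 CPM, and a fixed set of 13 genes; others were named after their values were seen, including 10 called genes outside that rule. The members and lists were chosen with earlier results of these data known. No 2 libraries held identical counts, and pairs within a nucleus differed by far more than sampling noise. Alternatives used limma 3.58.1 and DESeq2 1.42.0. Gene positions are GENCODE M21 on GRCm38, and 31 of 45 named genes had a RefSeq promoter entry. No column or row of another series was found.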

Additional observations from a re-analysis of the deposited data

Results flagged for a closer look

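In 80 groups of 6 or 8 libraries tested with Dixon's criterion, 26 held a library far from the others, spread over 11 libraries. The chance rate of this criterion, about 1 in 20 groups, holds for normally distributed values. Some of these CPM values were skewed or near 0, such as Gpc5 in VA 4 (0.0652 CPM, next 0). The count of 26 therefore cannot be set against that rate. The values were chosen partly because the genes were called, so the flags are not independent of the calls, and their cause was not tested.

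Single libraries stood far above the rest for Tmem184b (4119.7 CPM in VA 6, next 290.5), Glul (3308 CPM in VA 8, next 251), Adcy8 (3741 CPM in VM 2, next 104) and Stau1 (3500.8 CPM in VM 5, next 120.2). Adcy8 was also high in VA 3 (171 CPM) and Slc17a6 in VA 3 (1829 CPM, next 1175).

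VA 4 was far above the other VA libraries for Klhl14 (47.3 CPM), Pcsk5 (20.5 CPM) and Erich5 (19.1 CPM), and at a trace for Cbln4 (0.261 CPM) and Gpc5 (0.0652 CPM). VA 8 stood out for Timp4 (37.02 CPM), VA 3 for Nmbr (33.5 CPM), VA 1 for Alcam (9.99 CPM) and Calb2 (1.54 CPM), and VA 7 for Gm44905 (0.827 CPM). In VM, VM 4 stood out for Gm44905 (19.4 CPM), Prph (11.4 CPM), Cbln4 (10.6 CPM) and Calb2 (8.88 CPM), VM 2 for Mboat1 (15.8 CPM) and VM 5 for Gpc5 (6.59 CPM).

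By summed markers VA 3 held 4344 CPM of oligodendrocyte markers (next 676) and 343 CPM of inhibitory neuron markers (next 19.9), VA 5 held 50.02 CPM of microglia markers (next 14.6), and VM 3 held 6.68 CPM of inhibitory neuron markers (next 2.23).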

How the results depend on the processing

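With 21 calls (8 higher in VA, 13 in VM) as the reference, DESeq2 gave 320 (175 and 145), edgeR's newer quasi-likelihood estimate 118 (72 and 46), robust estimation 18, and limma voom with quality weights 4 (3 and 1); RLE scaling and no filter gave 21. Of the 21 genes, all were called by DESeq2, 9 by the newer estimate, 18 by the robust one and 3 with weights; the newer estimate lost the Y-linked genes, Erich5 and Cbln4 among others. Calls fell to 0 with VA and VM alone, with VA, VM and VL alone, with date (also on the shared dates), recorded sex or cell number as a term, on 6 August alone, with animal as a random block, in female-type libraries and on the shared dates without a term; 1 September alone gave 1 (0 in VA, 1 in VM). These smaller fits tested 7 to 11 of the 21 called genes, the others (Glra3 among them in the fits of VA, VM and VL) having failed the filter on low counts, so their calls were not tested there. Unadjusted p-values under 0.05 numbered 485 to 921 in the fits with 0. The newer estimate, the robust one, the weights, the female-type libraries and the shared dates without a term were chosen after seeing the data. Leaving out 1 library gave 13 to 28 calls (2 to 14 in VA, 8 to 15 in VM), the lowest without VM 2 or VM 5; 5 genes were called each time (Glra3 and the Y-linked genes).

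Replicate numbers did not pair VA with VM (correlations of deviations from -0.14 to 0.05, none best with its own number); with a replicate block there were 0 calls (539 unadjusted). Summing counts per animal was not run, since each library of a nucleus had its own animal.

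Signs reversed for Glul without VA 8 (-0.033), with the block (-0.063) and on 1 September (-0.35), for Tmem184b on 1 September (-0.25), for Adcy8 without VM 2 (0.34) and on 6 August (0.070), and for Stau1 without VM 5 (0.13), in female-type libraries (0.23) and on 1 September (0.25). Leaving out 1 library gave ranges of -0.033 to 2.08 for Glul, -3.19 to 0.34 for Adcy8 and -3.12 to 0.13 for Stau1. The leave-out fits that reversed lacked the gene's highest library. So did the fits of 1 September alone, 6 August alone and the female-type libraries, for the genes named with them. In the block, VA 8 had no VM library of its number. The cause of the reversals was not tested.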

Other observations

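Estimates for Zfhx4, Nlgn1 and Hpf1 differed by about 2-fold between VA and VM, and the genes were singled out with their values already known. They were not called by the edgeR test of the report, but were called by DESeq2 (adjusted p of 0.00518 for Zfhx4, 0.0330 for Nlgn1 and 0.00110 for Hpf1) and by edgeR's newer quasi-likelihood estimate (0.0306, 0.0179 and 0.0120). They were not called by limma voom with quality weights (0.635, 0.274 and 0.635), with the VA, VM and VL libraries alone (0.597, 0.5261 and 0.5261) or with date as a term (0.807 for each). Zfhx4, a large zinc-finger homeodomain factor, was at 20.96 (lowest), 62.9 (median) and 94.8 CPM (highest) in VA and at 82.2, 130.0 and 180.3 CPM in VM (log2 difference -1.11, 95% interval -1.66 to -0.56, edgeR adjusted p = 0.0668). Of 6 VM libraries 5 lay above every VA library. Nlgn1, the postsynaptic adhesion protein neuroligin-1, was at 34.6, 61.1 and 132 CPM in VA and 99.5, 152 and 218 CPM in VM (log2 difference -1.001, adjusted p = 0.165), and VL lay with VA at 42.0 to 72.8 CPM. Hpf1, a cofactor of ADP-ribosylation, was at 48.6, 93.0 and 231 CPM in VA and 37.9, 51.2 and 72.5 CPM in VM (log2 difference 1.17, adjusted p = 0.0668).

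The peptide gene Sst, 1 of the 3 measured inhibitory neuron markers, was at 0.178 (lowest), 6.27 (median) and 18.8 CPM (highest) in VA and at most 0.291 CPM in VM, with 6 of 8 VA libraries over 1 CPM and none of VM (edgeR adjusted p = 0.267). On 1 September Sst was at 0.178 and 0.261 CPM in VA and at 0.243 and 0.291 CPM in VM. Chrm1, the muscarinic M1 receptor, reached 31.7 and 12.1 CPM in VM 4 and VM 5, the libraries with Glra3, and at most 1.03 CPM in VA (adjusted p = 0.0689).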
